A study of Neurospora crassa OR74A with 12 samples.

Results

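The 200 most intron-rich genes of *Neurospora crassa*, a filamentous fungus whose genes usually carry only short introns, are described here across the WT strain and upf-1KO, each with and without H2O2. For each of the 10494 genes on chromosomes I to VII, out of 10685 in the table of counts, overlapping exons were merged and the merged exons were counted. The 200 genes with most merged exons were taken, and ties were broken by the larger Length, the number of exonic bases that the deposited table gives for each gene. The choice used only the gene models and no expression value. RNA was sequenced from mycelia in 4 groups of 3 libraries: untreated WT, untreated upf-1KO, WT with 20 mM H2O2 and upf-1KO with 20 mM H2O2. All 12 samples have the strain label OR74A, while the paper's methods name *bd* strains and a *ku70*RIP host with a disabled end-joining gene, in which *upf-1* was replaced by a hygromycin cassette. The sources used here do not say whether these are the strains that were sequenced, for how long H2O2 was given, or how many transformants upf-1KO stands for. The replicates were independent pools of mycelium.

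An intron is removed from the pre-mRNA by the spliceosome, and in many eukaryotes splicing leaves a protein complex, the exon junction complex, near each new exon junction. UPF-1 is the RNA helicase at the core of nonsense-mediated mRNA decay (NMD), which degrades mRNAs on which translation stops early, as can happen when an intron is retained or a splice site is misread. A gene with many introns has more junctions at which such an error can arise. Reads were counted here on the exons of each gene, so neither splicing nor intron retention was measured.

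The members have 6 to 17 merged exons, against a median of 2 over all genes on the 7 chromosomes. All genes with 7 or more exons are members, and the 6-exon class was cut by Length, with 4 of its 230 genes taken. The last members were NCU05608, NCU02858 and NCU06930, with Lengths of 8739, 8180 and 7680, and the first genes left out were NCU09357, *stt4* and NCU04472, with 7231, 7223 and 6696. Member Length had a median of 2744 and ran from 396 to 33355 bases, against a median of 1858 for all genes. The introns of the members were short. Their 1404 introns had a median of 68 bases, and 81.55% were under 100 bases, against a median of 75 bases and 70.3% for the 14227 introns of the other genes. An intron length divisible by 3 was found for 32.48% of member introns and 33.65% of the others. The members lie on every chromosome, from 17 on VII to 49 on I, and 9 pairs of them are direct neighbours.

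The 10 genes with most exons show the range of architectures. NCU06011 (NC12, chromosome VI, 3092610 to 3097787) has 17 exons. *gh13-2* (NCU09805, chromosome I, 4104873 to 4108609), named for a glycoside hydrolase family, packs 16 exons into a Length of 2471 bases. *suc* (NCU02505, chromosome I, 2545011 to 2550588), which encodes pyruvate carboxylase, has 12 exons, and *cdc15* (NCU01335, chromosome V, 3692753 to 3700051) has 11. The smallest exon of *gh13-2* has 15 bases. The drawing of the gene models shows runs of short exons beside long ones, near 1 end in *suc* and between a pair of long exons in NCU03398.

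**Figure D1:**
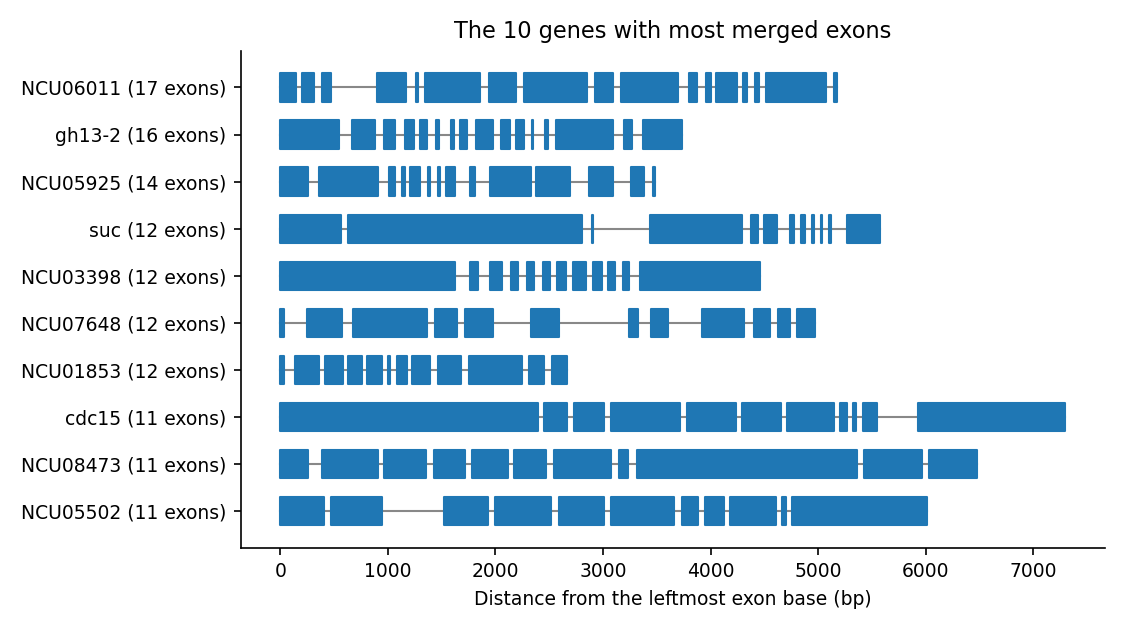
Gene models of the 10 genes with most merged exons, with exons as boxes and introns as lines, drawn from the leftmost exon base in base pairs irrespective of strand. Exon numbers run from 17 (NCU06011) to 11, and runs of short exons stand beside long ones in *suc* and NCU03398.

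Of the 200 members, 197 had reads, and 163 passed edgeR's filter on low counts among 7878 genes tested. The 37 members that were not tested had at most 19 reads in any library, and 3 of them had none. They were more compact than the tested ones, with a median of 4.26 exons per 1000 bases against 2.642. The gene with most exons, NCU06011, was among them. It had between 0.763 and 3.70 normalized counts in 10 libraries and 10.9 in replicate 2 of both H2O2-treated groups, where a normalized count is a read count brought to the mean library size after scaling with edgeR's TMM factors. NCU07648 and NCU01853, with 12 exons each, had 0 to 5 and 0 to 9 reads in a library.

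The tested members ranged widely in level, and 10 of them held 54.2% of the members' reads. The members together took 2.43% to 3.169% of the reads of a library. Over all libraries *fba*, which encodes the glycolytic enzyme fructose-bisphosphate aldolase, held 13.2% of member reads. *atp-2*, which encodes the beta subunit of the mitochondrial ATP synthase, held 10.86%, and *cyh-2*, a ribosomal protein gene at which cycloheximide resistance maps, held 10.66%. Per 1000 bases of Length, the mean normalized count over the 12 libraries was 24350 for *cyh-2*, 15750 for *fba* and 11210 for *atp-2*, but 30.6 for *cdc15* and 23.4 for *gh13-2*.

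Library totals lay between 5891672 and 7703271 counted reads. The targeted gene was lower in upf-1KO but not absent, with 531 to 575 normalized counts in untreated WT and 160 to 177 in untreated upf-1KO (*upf-1* is listed under the symbol *prd-6*, NCU04242). Replicate 2 of upf-1KO with H2O2 stood apart, with a Spearman correlation as low as 0.873 to another library of its group, while the other groups stayed at 0.952 or above. Some of the results with H2O2, but not all, are therefore also given without it. TMM factors were 1.30 to 1.53 in untreated libraries, 0.481 to 0.602 in WT with H2O2 and 0.802 to 1.12 in upf-1KO with H2O2. The sample labels name hyphal cells, and the 3 hyphal markers checked (*act*, *Bml*, *tef-1*) summed to 150200 to 156900 normalized counts in untreated WT, 87570 to 98020 in untreated upf-1KO, 52910 to 66540 in WT with H2O2 and 58950 to 71220 in upf-1KO with H2O2. The 6 conidiation markers checked (*con-6*, *con-8*, *con-10*, *con-13*, *eas* and *fl*) summed to 66990 to 81760, 56730 to 61440, 9918 to 10170 and 76100 to 116100 in the same order. In untreated WT, *con-8*, *con-10* and *con-13* stayed under 10, as did *con-6* and *con-13* in WT with H2O2. The conidiation sums of these groups therefore rest on the other markers. A sum does not give the direction of each marker. *Bml* alone had 5755, 6636 and 6204 in untreated WT and 6112, 9531 and 9033 in WT with H2O2, where the hyphal sum was lower. The part of these shifts in the results below was not tested, and in bulk RNA fewer cells of a type and less RNA per cell cannot be told apart.

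To see how intron-rich genes differ from genes without introns, each tested member was set beside the tested single-exon gene nearest in Length, each used once and within a ratio of 1.1. Of the 2831 single-exon genes 1631 were tested, and 158 of the 163 members found such a partner, with median Lengths of 2832 for these members and 2830 for the partners. In each library the median over genes of the log2 deviation from the untreated WT mean was taken for both sets (pseudocount of 1 normalized count). The member median stayed close to 0 in all libraries, between -0.0823 and 0.112. The single-exon median was -0.767, -0.871 and -0.975 in the 3 WT libraries with H2O2 and -0.742, -0.214 and -0.885 in those of upf-1KO with H2O2. It was -0.116 to -0.179 in untreated upf-1KO. Members minus partners, a difference taken within a library, was 0.909 ± 0.122 (SD, n = 3) in WT with H2O2 and 0.683 ± 0.410 (SD, n = 3) in upf-1KO with H2O2. It was 0.106 ± 0.0141 (SD, n = 3) in untreated upf-1KO. In the WT strain the H2O2-treated libraries lay at 0.798 to 1.04 and the untreated ones at -0.0284 to 0.0171, with no overlap. With 3 libraries a group, 0.1 is the smallest two-sided p-value that exact permutation allows, and no other test of these medians was run. Replicate 2 of upf-1KO with H2O2, at 0.219, lay between the untreated libraries and the other libraries with H2O2. The untreated WT libraries are the reference of these deviations, so that their own values near 0 follow from the calculation.

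**Figure D2:**
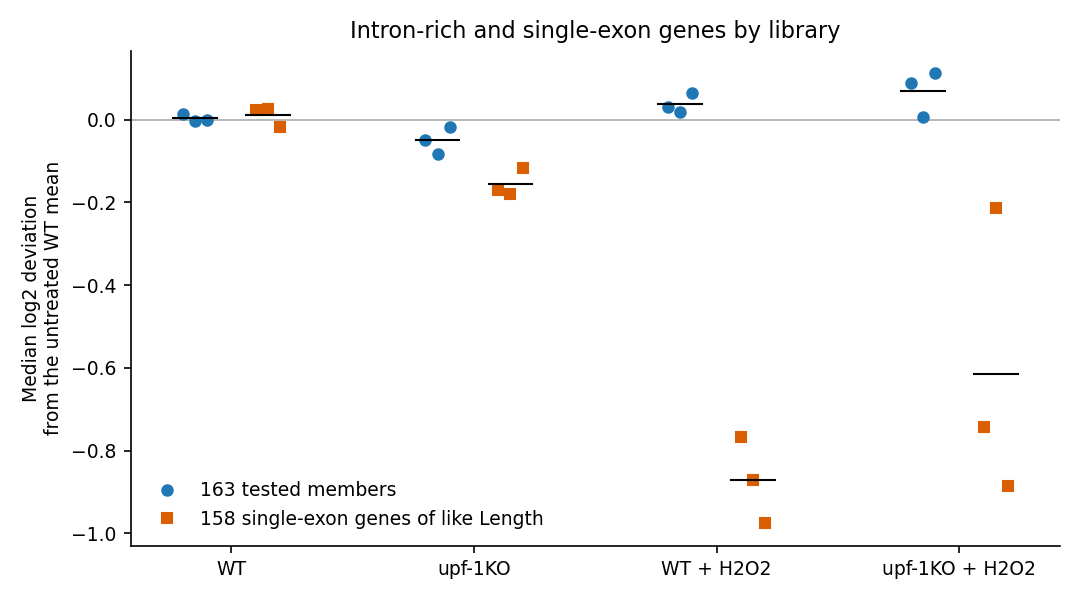
Median log2 deviation from the untreated WT mean in each of the 12 libraries, for members (circles) and 158 single-exon genes of like Length (squares), with 3 libraries per group and lines at group means. The circles are medians over the 158 members with a single-exon partner, although the legend gives the 163 tested members. Members stay between -0.0823 and 0.112, while the single-exon genes lie at -0.767 to -0.975 in WT with H2O2 and at -0.214 to -0.885 in upf-1KO with H2O2.

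The same was seen in the fitted fold changes. Changes were tested with edgeR's quasi-likelihood test over all 12 libraries, and rose and fell are used for a Benjamini-Hochberg adjusted p-value under 0.05 over all 7878 genes. Upon H2O2 in the WT strain 42 of the 163 members rose and 38 fell, where 26.5% of all genes rose and 30.2% fell, so that members fell at a share of 23.3%. Of their 158 single-exon partners 16 rose and 71 fell. The median log2 fold change was -0.01 for the 163 members and -0.13 for all genes. Over the 158 pairs it was 0.06 for the members and -0.79 for the partners, a difference of 0.86, and the member had the higher value in 116 pairs. The members were also more highly expressed, with a median log2 CPM of 5.61 against 4.29 for the partners. With 154 partners matched on Length and on level, the difference of the medians was 0.37, and against all 1609 single-exon genes in the Length range of the members it was 0.40. These 1609 genes were not of like Length, with a median of 2109 against 2923 for the tested members. Scaling the libraries to their totals alone moved the median of all genes to -1.37 and that of the members to -1.23, so all directions upon H2O2 are relative to the other genes. Under that scaling 8 members rose and 114 fell in WT and 9 and 88 in upf-1KO. Of all genes 7.248% rose and 67.3% fell there in WT, and 9.216% and 43.17% in upf-1KO. With DESeq2's size factors in edgeR 53 rose and 30 fell in WT, or 56 and 31 with DESeq2 itself. Of all genes 30.08% rose and 26.44% fell with these factors, and 31.02% and 27.29% with DESeq2.

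Longer genes had lower values upon H2O2, and at like Length genes with more exons had higher ones. Among the 163 members, the log2 fold change in the WT strain had a Spearman correlation of -0.42 with Length and of 0.07 with exon number, as a description across genes that share their libraries. Within classes of Length, however, the median over all tested genes was higher for more exons. For genes with a Length of 2000 to 3000 bases it was -0.52 for 523 single-exon genes, -0.29 for 806 genes with 2 exons, -0.09 for 811 genes with 3 to 4 exons, -0.15 for 196 other genes with 5 to 6 exons and 0.28 for 52 members. For genes of 4000 to 6000 bases the median was -1.16 for 131 single-exon genes, -0.89 for 84 other genes with 5 to 6 exons and -0.15 for 29 members. The members of 1000 to 2000 bases had a median of 0.85, against 0.03 for single-exon genes of that Length. Other genes with 5 to 6 exons had 0.71 there, and 48.85% of them rose, against 48.39% of the members. At 3000 to 4000 bases the members had -0.28 and other genes with 5 to 6 exons -0.29. In these 2 classes the members were thus much like genes with 5 to 6 exons. The median was higher in members than in single-exon genes in all 4 Length classes, while the change from class to class of exon number was uneven.

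**Figure D3:**
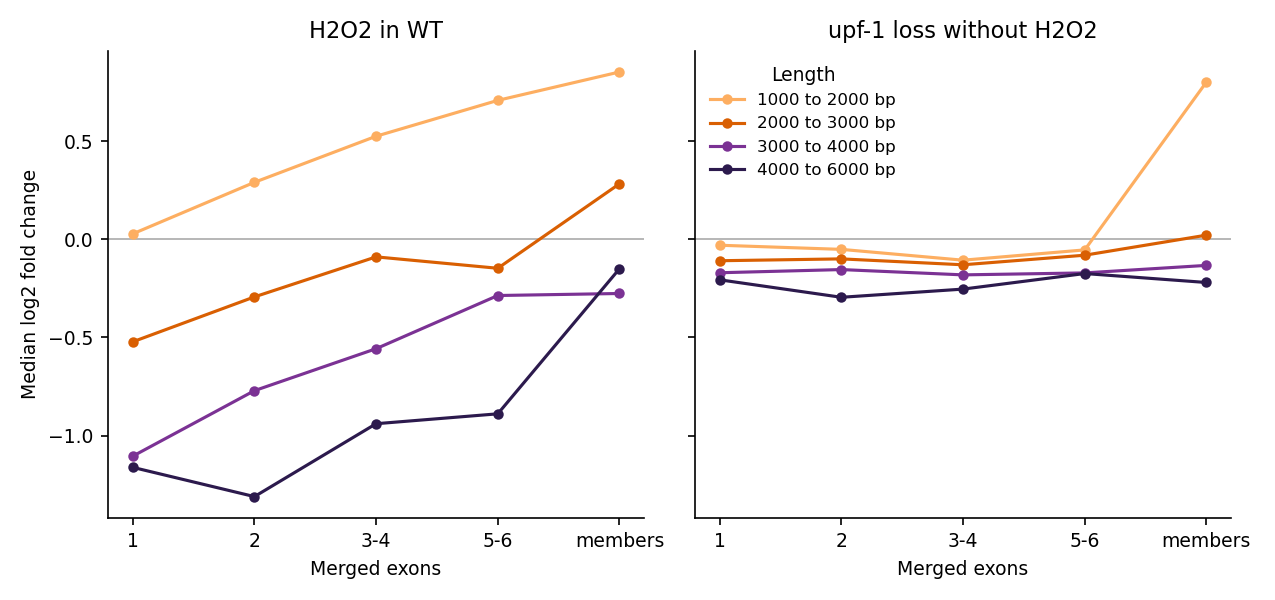
Median log2 fold change upon H2O2 in WT (left) and upon *upf-1* loss without H2O2 (right) for tested genes by number of merged exons, with 1 line for each class of Length in base pairs. For H2O2 in WT the members lie at 0.85, 0.28, -0.28 and -0.15 from the shortest to the longest class and the single-exon genes at 0.03, -0.52, -1.10 and -1.16, whereas for *upf-1* loss only the members of 1000 to 2000 bases, at 0.80, lie far from the rest.

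In upf-1KO, 36 members rose upon H2O2 and 39 fell, where 26% of all genes rose and 22.8% fell, and 23 of the 158 partners rose and 60 fell. The difference of the medians was 0.46, and without replicate 2 of upf-1KO with H2O2 it was 0.85. Without that library 49 of 166 members rose and 49 fell, where 30.89% of all genes rose and 34.28% fell. Only 21 rose without replicate 1 and 23 without replicate 3 of the same group, where 18.83% and 18.49% of all genes rose. Between the strains with H2O2 (upf-1KO against WT) 20 members rose and 25 fell, where 15.5% of all genes rose and 12% fell, and 27 partners rose and 12 fell. Here members minus partners was -0.39 as a difference of medians, which was 0.03 without replicate 2 of upf-1KO with H2O2, so that this library decides the difference. Both comparisons share the upf-1KO libraries with H2O2.

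**Figure D4:**
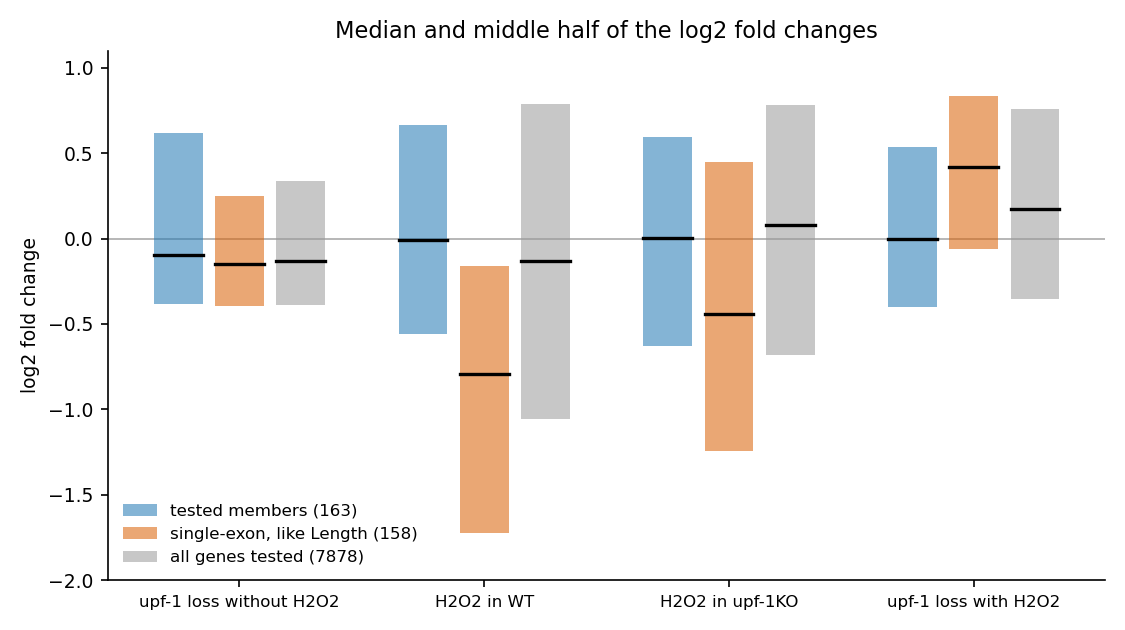
Median (line) and span from the lower to the upper quartile (box) of the log2 fold changes of the 163 tested members, the 158 single-exon genes of like Length and all 7878 tested genes in the 4 comparisons of 2 groups. The member medians are -0.09, -0.01, 0.0013 and -0.0046 from left to right and those of the single-exon genes -0.15, -0.79, -0.44 and 0.42.

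Which intron-rich genes respond to the loss of *upf-1* was asked first in untreated mycelium. There 29 of the 163 members rose (17.8%) and 7 fell (4.29%), where 10.4% of all genes rose and 4.71% fell, and 15 of the 158 single-exon partners rose and 10 fell. The median log2 fold change was -0.09 for members, -0.15 for partners and -0.13 for all genes. Of the 76 members with 8 or more exons 19 rose (25%), and of the 87 with fewer exons 10 rose. The increases ran from 0.72 to 3.66 on the log2 scale. In none of the 29 did the 2 groups overlap, but passing the test favours groups that lie apart. The same was not counted for all genes that rose, so it adds no support. The number that rose depended on the libraries. It was 12 of 167 without untreated WT replicate 2, where 6.918% of all genes rose, a share close to that of the members. It was 17 of 167 without replicate 3, where 6.955% of all genes rose. Without untreated upf-1KO replicates 1, 2 and 3 it was 18 of 166, 15 of 164 and 15 of 166. There 7.395%, 7.273% and 7.099% of all genes rose. With only the 2 untreated groups fitted it was 65 of 161, where 29.7% of all genes rose. Scaled to library totals 36 rose and 3 fell, where 12.96% and 2.348% of all genes did. With DESeq2 35 rose and 16 fell, where 12.67% and 8.073% of all genes did. Of the 29 genes, 12 rose without any of the 12 libraries in turn, namely NCU02051, NCU02327, NCU02343, NCU04191, *egt-1*, NCU07069, NCU07421, NCU08696, NCU08750, NCU09795, NCU09811 and NCU10809.

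NCU02343 (chromosome VII, 2844934 to 2848061, 7 exons), which the paper's supplement annotates as an alpha-L-arabinofuranosidase, an enzyme that removes arabinose from plant cell wall polymers, had the largest increase among all members. It had 37.8, 30.0 and 31.6 normalized counts in untreated WT and 381, 437 and 440.5 in untreated upf-1KO. The groups lay far apart, and the log2 fold change was 3.66 (SE 0.26, adjusted p = 4.9e-06 from edgeR). NCU02051 (chromosome I, 1543429 to 1548853, 9 exons) had 34.0, 30.8 and 26.5 in untreated WT and 163, 150 and 206 in untreated upf-1KO, a log2 fold change of 2.50 (SE 0.28, adjusted p = 0.000118 from edgeR). NCU08750 (chromosome II, 3883967 to 3886016, 8 exons), annotated as an isoamyl alcohol oxidase, had 91.1, 95.3 and 68.3 in WT and 390, 340 and 353 in upf-1KO, a log2 fold change of 2.09 (SE 0.34, adjusted p = 0.00145 from edgeR). The annotations in the supplement were given to genes because they were higher in upf-1KO, so they say nothing of the members as a whole.

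NCU07421 (chromosome I, 5988632 to 5990867, 8 exons), for which the supplement gives the polyadenylate-binding protein as the yeast counterpart, had 715, 815 and 716 normalized counts in untreated WT and 3043, 3101 and 3097 in untreated upf-1KO, and rose by 2.04 (adjusted p = 5.6e-05 from edgeR). Polyadenylate-binding protein coats the tails of mRNAs and takes part in translation. NCU04191 (chromosome V, 5154376 to 5156187, 8 exons), annotated as *rai-1*, a decapping nuclease, had 77.9, 77.7 and 62.4 in WT and 236, 232 and 226 in upf-1KO, and rose by 1.67 (adjusted p = 0.00442 from edgeR). *egt-1* (NCU04343, chromosome IV, 3707018 to 3711237, 11 exons), needed for the synthesis of the antioxidant ergothioneine, had 1544, 1632 and 1560 in WT and 4188, 4080 and 4356 in upf-1KO. It rose by 1.41 (SE 0.20, adjusted p = 0.00056 from edgeR), and because its exons overlap those of NCU04344 and the strand used in counting is not stated, its count is uncertain. Of these genes each upf-1KO library lay above each WT library.

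**Figure D5:**
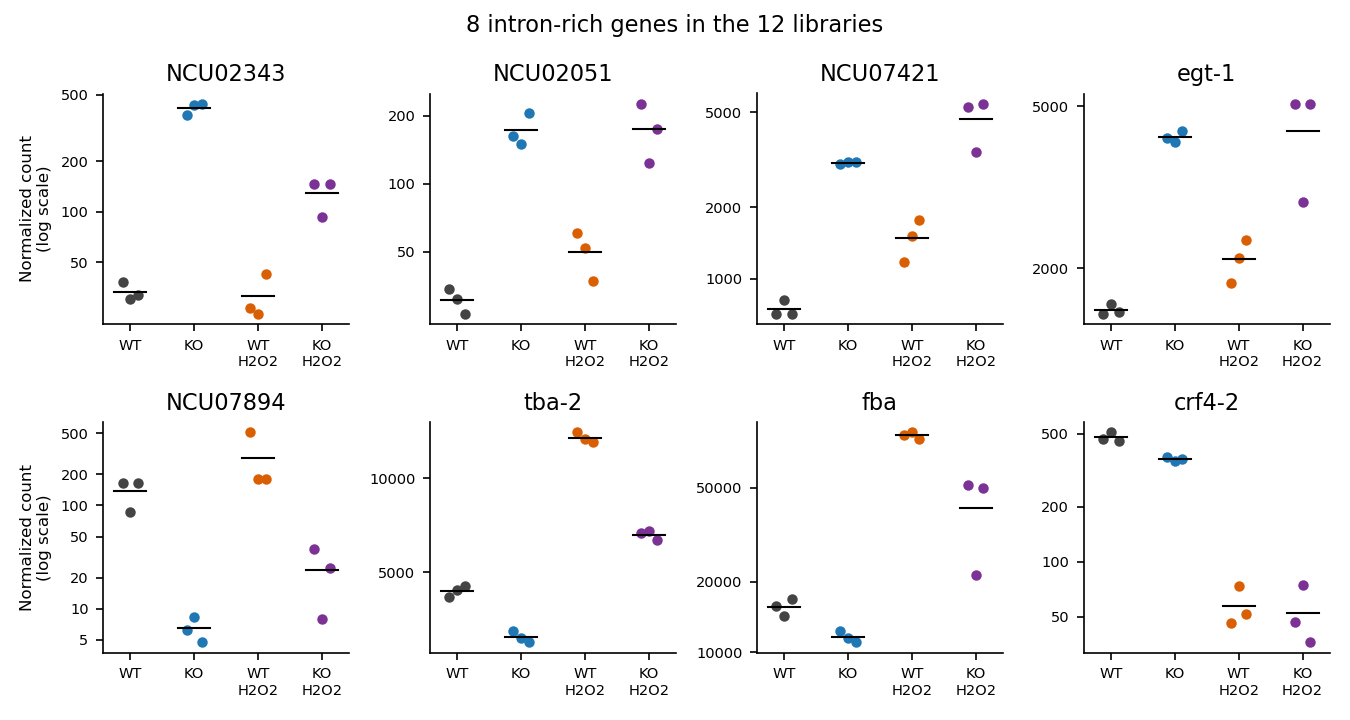
Normalized counts of 8 intron-rich genes in each of the 12 libraries on a log axis, with points for libraries and lines for the means of the 4 groups (KO is upf-1KO). NCU02343, NCU02051, NCU07421 and *egt-1* are higher in upf-1KO with and without H2O2 and NCU07894 is lower in both, while *fba* and *tba-2* are higher and *crf4-2* is lower with H2O2 in both strains.

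Members with symbols for glycoside hydrolases or secondary metabolism numbered 5, of which 3 were tested and 2 rose upon *upf-1* loss, where 10.4% of all genes rose. *gh13-2*, with 16 exons the tested gene with most exons, had 27.8, 27.7 and 16.2 normalized counts in untreated WT and 86.2, 111 and 90.3 in untreated upf-1KO, and rose by 1.99 (SE 0.51, adjusted p = 0.0196 from edgeR), a call that was lost without 5 of the 12 libraries in turn. *gh35-1* (NCU00642, 7 exons) had 228, 141 and 191 in WT and 409, 487 and 479 in upf-1KO, and rose by 1.30 (SE 0.29, adjusted p = 0.0104 from edgeR). The polyketide synthase gene *pks-1* had a log2 fold change of 0.61 (adjusted p = 0.0554 from edgeR). With H2O2 in upf-1KO *gh35-1* fell by 0.88 and *pks-1* by 0.57, the latter reversing to 0.52 with the trend with Length removed.

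Of the 29 members that rose, 13 had a Length of 1000 to 2000 bases. These were 13 of the 31 tested members of that Length (41.9%), of which none fell and 21 had a value above 0, and their median log2 fold change was 0.80. For other genes of this Length the median was -0.03 with 1 exon, -0.05 with 2 exons, -0.11 with 3 to 4 exons and -0.05 with 5 to 6 exons, and between 10.7% and 13.8% of them rose. This Length class was singled out after the values were seen. Without the filter on low counts the class held 46 members, of which 12 rose (26.1%), and their median was 0.43. The median of the 31 members was 0.78 to 0.92 over the 12 refits without 1 library, but the number that rose went down to 4 without untreated WT replicate 2 or untreated upf-1KO replicate 2, to 5 without upf-1KO replicate 3, to 6 without WT replicate 3 or upf-1KO replicate 1 and to 7 without WT replicate 1. Without untreated WT replicate 2 the 4 were 12.9%, and 6.11% to 9.04% of the other exon classes rose. The median log2 CPM of the 31 members was 4.86, against 3.65 for single-exon genes and 5.44 for genes of 5 to 6 exons of that Length. Over all 163 members the change upon *upf-1* loss had a Spearman correlation of -0.29 with Length, 0.15 with exon number and -0.39 with level, given as a description. NCU08750 and NCU07421 had the highest values of the 31 and *cyh-2* the lowest, -0.51 (adjusted p = 0.337 from edgeR).

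The 7 members that fell in untreated upf-1KO were NCU07894, NCU03776, *Bml*, NCU05634, NCU07745, *tba-2* and NCU04600. NCU07894 (chromosome IV, 1426447 to 1432506, 10 exons) had 164, 86.9 and 163 normalized counts in untreated WT and 6.26, 8.39 and 4.75 in untreated upf-1KO, a log2 fold change of -4.40 (SE 0.61, adjusted p = 0.000486 from edgeR). Its exons overlap those of NCU07895, so its count is uncertain. NCU03776 (chromosome V, 2375766 to 2381242, 7 exons), which overlaps NCU03777, fell by 0.94 (adjusted p = 0.00451 from edgeR). The count of 7 rests on the libraries, since it was 34 without replicate 2 of upf-1KO with H2O2 and 2 or 3 without any other library, except 7 without replicate 1 of WT with H2O2. NCU07894 and NCU03776 were the only 2 that fell in all 12 refits without 1 library. The count was 45 when only the 2 untreated groups were fitted. Of all genes 19.12% fell without replicate 2 of upf-1KO with H2O2 and 26.98% with only the untreated groups fitted.

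Tubulin genes are among them. The heterodimers of alpha and beta tubulin form the microtubules along which hyphae move organelles and nuclei. *Bml*, the beta tubulin gene (NCU04054, chromosome VI, 2582865 to 2585515, 7 exons), had 5755, 6636 and 6204 normalized counts in untreated WT and 4107, 3735 and 3627 in untreated upf-1KO, a log2 fold change of -0.70 (SE 0.21, adjusted p = 0.0453 from edgeR). *tba-2*, an alpha tubulin gene (NCU09468, chromosome II, 4376995 to 4380245, 7 exons), had 4160, 4372 and 4501 in WT and 3243, 3082 and 2979 in upf-1KO, a log2 fold change of -0.49 (SE 0.13, adjusted p = 0.0241 from edgeR). The groups did not overlap for either gene, but the call was lost for *Bml* in 11 and for *tba-2* in 10 of the 12 refits without 1 library. *Bml* is also 1 of the 3 hyphal markers, whose sum was lower in upf-1KO. The actin-related genes *arp-3* and *crn* (coronin) had log2 fold changes of -0.26 (adjusted p = 0.529 from edgeR) and -0.51 (adjusted p = 0.0905 from edgeR).

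Upon H2O2, 4 of the 6 tested members with a symbol for carbon and energy metabolism rose in each strain. They were *suc*, *fba*, *atp-2* and *nuo40* (a subunit of respiratory complex I), while *aod-2*, an alternative oxidase gene, and *tca-16* did not pass the test in either. Of all genes 26.5% rose in WT and 26% in upf-1KO. Counts in such small groups of members, here and below, are a description only. *fba* (NCU07807, chromosome V, 220460 to 223264, 7 exons) had 15820, 14220 and 16830 normalized counts in untreated WT, 84080, 85970 and 80730 in WT with H2O2, 12300, 11490 and 11050 in untreated upf-1KO and 51350, 21420 and 50010 in upf-1KO with H2O2. All H2O2-treated libraries lay above all untreated ones, replicate 2 of upf-1KO by the least, and the log2 fold changes were 2.42 in WT (SE 0.30, adjusted p = 5.0e-05 from edgeR) and 1.82 in upf-1KO (SE 0.29, adjusted p = 0.000433 from edgeR). *nuo40* rose by 1.78 in WT (adjusted p = 0.000241 from edgeR) and by 1.02 in upf-1KO (adjusted p = 0.0092 from edgeR). *suc* rose by 0.98 in WT (adjusted p = 0.00567 from edgeR) and by 0.95 in upf-1KO, which was 0.63 without upf-1KO replicate 1 with H2O2. With library totals alone as the scale, *suc* had -0.26 in WT.

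*atp-2* (NCU05430, chromosome II, 1611546 to 1614821, 8 exons) had 19180, 21170 and 20760 normalized counts in untreated WT and 47820, 74000 and 65620 in WT with H2O2, a log2 fold change of 1.62 (SE 0.30, adjusted p = 0.000771 from edgeR). In upf-1KO the groups overlapped, with 13400, 12180 and 11870 untreated and 29230, 11740 and 23460 with H2O2. There the log2 fold change was 0.78 (adjusted p = 0.045 from edgeR). It was 0.36 without replicate 1 and 1.08 without replicate 2 with H2O2, and the call held in only 1 of the 12 refits without 1 library.

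The other large increase was that of *cyh-2* (NCU03806, chromosome V, 2472282 to 2474017, 8 exons). It had 13000, 14590 and 14600 normalized counts in untreated WT, 46330, 75670 and 66730 in WT with H2O2, 9887, 9969 and 9874 in untreated upf-1KO and 43610, 16050 and 41480 in upf-1KO with H2O2. It rose by 2.16 in WT (SE 0.34, adjusted p = 0.00024 from edgeR) and by 1.77 in upf-1KO (SE 0.33, adjusted p = 0.00117 from edgeR). NCU04237 (chromosome V, 5313640 to 5316040, 8 exons), a gene without a symbol, had 262, 138 and 227 in untreated WT and 2165, 860 and 938 in WT with H2O2, and rose by 2.66 in WT (SE 0.41, adjusted p = 0.00021 from edgeR) and by 1.96 in upf-1KO (SE 0.40, adjusted p = 0.00187 from edgeR). Neither gene's groups overlapped, as the rule for naming the largest changes required.

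Of the 4 cytoskeletal genes, 2 rose and 1 fell in WT with H2O2, and 3 rose in upf-1KO. Among all genes 26.5% rose and 30.2% fell in WT, and 26% rose in upf-1KO. *tba-2* had 14020, 13370 and 13060 normalized counts in WT with H2O2 and 6696, 6760 and 6332 in upf-1KO with H2O2, an increase of 1.63 (SE 0.13, adjusted p = 3.8e-06 from edgeR) and 1.09 (SE 0.13, adjusted p = 6.5e-05 from edgeR). *arp-3*, which encodes a core subunit of the actin-nucleating Arp2/3 complex, rose by 1.08 in WT (adjusted p = 0.00326 from edgeR; -0.17 with library totals alone) and by 0.94 in upf-1KO, which was 0.56 without upf-1KO replicate 1 with H2O2. *Bml* rose in upf-1KO by 0.60 (adjusted p = 0.0345 from edgeR), a call that was lost in 10 of the 12 refits. Its value was 0.35 without replicate 1 with H2O2 and -0.16 with library totals alone. *crn* fell in WT by 0.51 (adjusted p = 0.0352 from edgeR). It was at -0.31 without replicate 1 of WT with H2O2 and its call was lost in 9 of the 12 refits without 1 library.

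In the synthesis of amino acids, nucleotides and cofactors, 3 of 7 members rose in WT with H2O2, where 26.5% of all genes rose. Each of the 3 was lower under library totals alone. *gln-2*, a glutamine synthetase gene, rose by 0.62 (adjusted p = 0.012 from edgeR; -0.60 with totals), *arg-1*, for the argininosuccinate synthase of arginine synthesis, by 0.87 (adjusted p = 0.0125 from edgeR; -0.38 with totals) and *rib-3* by 0.74 (adjusted p = 0.0157 from edgeR; -0.51 with totals). *ad-8*, for the adenylosuccinate synthase of AMP synthesis, and *thi-4* were not called in any comparison. In upf-1KO only *rib-3* rose, by 0.76, which was 0.46 without replicate 3 with H2O2 and lost its call in 5 of the 12 refits.

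Of 8 tested genes of signalling and transcription, 4 fell and 1 rose in WT with H2O2, where 30.2% of all genes fell and 26.5% rose. *crf4-2* (NCU00164, chromosome III, 2855140 to 2860288, 7 exons), named for a chromatin remodelling factor, had 467, 508 and 457 normalized counts in untreated WT, 46.2, 73.7 and 51.7 in WT with H2O2, 375, 355 and 366 in untreated upf-1KO and 47.2, 74.4 and 36.4 in upf-1KO with H2O2. It fell by 3.08 in WT (SE 0.27, adjusted p = 5.7e-06 from edgeR) and by 2.78 in upf-1KO (SE 0.26, adjusted p = 1.6e-05 from edgeR), and no treated library reached an untreated one. *stk-49*, a protein kinase gene, had 316, 310 and 282 in untreated WT and 71.1, 30.0 and 73.9 in WT with H2O2, and fell by 2.35 (SE 0.64, adjusted p = 0.00832 from edgeR). In upf-1KO with H2O2 it had 53.8, 360 and 55.9, and replicate 2 alone lay above the untreated libraries. The log2 fold change was -0.71 there (adjusted p = 0.341 from edgeR), and without that replicate it was -2.23 (adjusted p = 9.3e-06 from edgeR).

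The kinase gene *cdc15* had 306, 264 and 319 normalized counts in untreated WT, 126, 166.5 and 150 in WT with H2O2, 252, 265 and 280 in untreated upf-1KO and 57.7, 82.3 and 80.6 in upf-1KO with H2O2. It fell by 1.01 in WT (SE 0.19, adjusted p = 0.000979 from edgeR) and by 1.85 in upf-1KO (SE 0.20, adjusted p = 3.2e-05 from edgeR), and with the trend with Length removed it reversed to 0.28 in WT. *rcm-1*, for a Ssn6-type corepressor, fell by 0.94 in WT and by 0.44 in upf-1KO. With the trend with Length removed its value in upf-1KO reversed to 0.28. *krev-1*, a Ras-like GTPase gene, had 178, 168 and 196 in untreated WT and 469, 589.5 and 595 in WT with H2O2, and rose by 1.61 in WT (SE 0.25, adjusted p = 0.000211 from edgeR) and by 1.54 in upf-1KO (SE 0.24, adjusted p = 0.000384 from edgeR). *os-2*, the MAP kinase of the osmotic stress pathway, and *rrg-2*, a response regulator gene, were not called upon H2O2 in either strain, with *os-2* at 0.29 (SE 0.16) in WT and *rrg-2* at 0.07 (SE 0.33). *pph-1*, for the catalytic subunit of a PP2A-type phosphatase, rose in upf-1KO by 0.71 (adjusted p = 0.00954 from edgeR). It was at 0.34 without replicate 3 with H2O2 and -0.05 with library totals alone.

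Genes of DNA repair and meiosis were 4 in number, of which *mus-9* (an ATR-type checkpoint kinase), *mus-52* (Ku80) and *msh4* were tested and none was called in any comparison. *mus-52* had 118, 677.5 and 103 normalized counts in upf-1KO with H2O2, against 171 to 175 untreated, so that 1 library set the mean. Without replicate 2 its log2 fold change upon H2O2 in upf-1KO was -0.65 (adjusted p = 0.00478 from edgeR) in place of 0.80. *mus-9* showed the same library on top, with 119, 315 and 126.

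Large decreases with H2O2 were also found among members without a symbol. NCU06930 (chromosome VII, 799093 to 807098, 6 exons), the last gene inside the limit of the set, had 186, 166 and 151 normalized counts in untreated WT and 21.3, 19.1 and 18.5 in WT with H2O2, and fell by 3.08 (SE 0.28, adjusted p = 6.3e-06 from edgeR) and in upf-1KO by 2.41 (SE 0.24, adjusted p = 2.2e-05 from edgeR). NCU05502 (chromosome VI, 1704347 to 1710353, 11 exons) had 205, 206 and 191 in untreated WT, 35.6, 49.1 and 46.2 in WT with H2O2, 163, 143 and 153 in untreated upf-1KO and 28.9, 27.8 and 23.4 in upf-1KO with H2O2. Its log2 fold change was -2.21 in WT (SE 0.21, adjusted p = 8.3e-06 from edgeR) and -2.51 in upf-1KO (SE 0.21, adjusted p = 9.2e-06 from edgeR). NCU05925 (chromosome VI, 14 exons) had 160.5, 182 and 187 in untreated WT and 17.8, 0 and 16.6 in WT with H2O2, and fell by 3.82 (SE 0.95, adjusted p = 0.00483 from edgeR). In upf-1KO with H2O2 it had 15.7, 189.5 and 16.9, so that replicate 2 lay above the untreated libraries at 113 to 134 and the others below them. NCU03398, with 12 exons, fell in both strains, by 1.34 in WT (adjusted p = 0.00583 from edgeR) and by 0.89 in upf-1KO (adjusted p = 0.0357 from edgeR), the latter call being lost in 5 of the 12 refits.

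The H2O2 comparisons in the 2 strains set different groups of libraries against each other. The same fit over all 12 libraries gave both, with a shared estimate of the spread, so they are not independent repeats. Of the 42 members that rose in WT, 27 (64.3%) also rose in upf-1KO, where they are 75% of 36, and of the 38 that fell, 28 (73.7%) also fell in upf-1KO, where they are 71.8% of 39. The overlap was not counted over all genes, so it does not set the members apart. Only 1 member was called in opposite directions. It was NCU02404 (chromosome VII, 2615513 to 2620447, 10 exons), with 4494, 5124 and 4553 normalized counts in untreated WT, 7284, 9438 and 10020 in WT with H2O2, 5838, 5591 and 5654 in untreated upf-1KO and 4441, 3566 and 4230 in upf-1KO with H2O2. It rose by 0.92 in WT (adjusted p = 0.000522 from edgeR; -0.33 with library totals alone) and fell by 0.48 in upf-1KO (adjusted p = 0.0258 from edgeR). Members that rose were shorter than those that fell, with median Lengths of 2440 and 3818 in WT and of 2464 and 3988 in upf-1KO.

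The loss of *upf-1* was compared again with H2O2 in both strains, between other groups of libraries. The same fit over all 12 libraries gave both comparisons, with a shared estimate of the spread, so they are not independent repeats. Of the 29 members that rose without H2O2, 11 (37.9%) also rose with it, where they are 55% of 20, and of the 7 that fell 4 also fell, which is 16% of 25. Here too the overlap over all genes was not counted. The 11 were NCU02051, NCU02327, NCU02343, NCU02627, NCU04191, *egt-1*, NCU07421, NCU09795, *gh13-2*, NCU10809 and NCU16806, and the 4 were NCU03776, NCU04600, NCU07894 and *tba-2*. NCU02343 had 26.7, 24.6 and 42.5 normalized counts in WT with H2O2 and 147, 93.3 and 147 in upf-1KO with H2O2, an increase of 2.02 (SE 0.27, adjusted p = 0.000504 from edgeR). NCU02051 had 60.4, 51.9 and 37.0 in WT and 226, 124 and 175 in upf-1KO, an increase of 1.81 (SE 0.29, adjusted p = 0.00129 from edgeR). NCU10809 (chromosome II, 4312939 to 4316864, 11 exons) had 117, 76.4 and 118 in WT and 412, 249 and 431 in upf-1KO, an increase of 1.79 (SE 0.26, adjusted p = 0.000713 from edgeR). In each of the 3 genes the groups did not overlap, as the rule that named them required. The number that rose was 34 without replicate 2 of upf-1KO with H2O2, 85 (with 3 that fell) under library totals alone, 17 (with 36 that fell) with DESeq2 and 7 when only the 2 groups were fitted. Of all genes 17.85%, 52.61%, 14.37% and 2.849% rose in these fits, in that order, and 18.19% fell in the first of them. The number that fell was also 34 without that library, and it was 16 without any of untreated WT replicates 1 and 3, untreated upf-1KO replicates 1, 2 and 3 and WT replicates 2 and 3 with H2O2.

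Genes of energy metabolism were among those lower in upf-1KO than in WT with H2O2. Of the 6 members, *atp-2*, *nuo40* and *fba* fell and none rose, by 1.54 (SE 0.30, adjusted p = 0.00395 from edgeR), 0.91 (adjusted p = 0.0288 from edgeR) and 1.03 (adjusted p = 0.0215 from edgeR). Among all genes 12% fell and 15.5% rose. Without replicate 2 of upf-1KO with H2O2 the values were -1.24 for *atp-2*, -0.60 for *nuo40* and -0.72 for *fba*. *tba-2* fell by 1.03 (SE 0.13, adjusted p = 0.000333 from edgeR), *cdc15* by 0.996 (SE 0.20, adjusted p = 0.00479 from edgeR) and NCU07894 by 3.65 (SE 0.57, adjusted p = 0.00123 from edgeR), the last from 508, 180 and 181 normalized counts to 38.1, 7.94 and 24.7. *tah-3* fell by 1.21 (SE 0.34, adjusted p = 0.0229 from edgeR), and its difference rested partly on WT replicate 1 with 4202 against 1520 and 1313 in the other WT libraries, since it was -0.57 without it. *os-2*, with 2016, 1523 and 1583 in WT and 1360, 1017 and 1293 in upf-1KO, fell by 0.48 (SE 0.16, adjusted p = 0.0391 from edgeR), and this call was lost in 7 of the 12 refits. With library totals alone the value of *os-2* reversed to 0.20. *cbs-1* and *vma-1*, the latter for a subunit of the vacuolar proton pump, fell by 0.70 and 0.58, the latter being -0.39 without replicate 2 of upf-1KO and 0.08 with library totals alone. The call of *vma-1* was lost in 6 of the 12 refits.

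Whether the H2O2 effect differs between the strains was tested as an interaction. It was more positive in upf-1KO for 3 members and more negative for 4, where 3.86% and 2.86% of all genes were called, and 12 and 2 of the 158 single-exon partners were called, or 4 and 7 of the 154 partners matched on level too. The numbers are set by single libraries, being 14 and 14 without replicate 2 of upf-1KO with H2O2 and 5 and 15 without replicate 1 of WT with H2O2, while without any other library they were 0 or 1 and 1 to 8. Of all genes 9.408% and 7.273% were called without the first of these libraries, and 5.479% and 7.41% without the second. NCU02404, with an interaction of -1.40 (SE 0.23, adjusted p = 0.00644 from edgeR), was the only member called in all 12 of these refits. Over the 4 comparisons of 2 groups, 118 of the 163 tested members were called at least once, 45 never and 6 in all 4. The same was not counted over all genes, of which 26.5% rose and 30.2% fell with H2O2 in WT alone. These numbers therefore do not set the members apart.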

How the data were processed

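Counts of reads per gene, whole numbers without normalization, were deposited for 12 libraries. The authors used HISAT2 2.2.1 for alignment (OR74A, NC12) and featureCounts (Subread 2.0.1) for counting, and strand use in counting is not stated. The 12 columns of FPKM were not used. Exons were merged from the coordinates in the table, which were identical to RefSeq NC12 for all 200 members. RefSeq symbols matched 10588 identifiers and 38 members had a symbol. RefSeq product names were not used here, so lists of splicing and NMD genes could not be formed. Annotations of single genes without a symbol are from the paper's supplement. No sequences were used.

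edgeR 4.0.16 in R 4.3.3 (TMM, filterByExpr, glmQLFit and glmQLFTest over 4 group means of 3 libraries) was fitted to the counts, with Benjamini-Hochberg adjustment over 7878 genes at 0.05. A standard error (SE) is the size of the log2 fold change over the square root of F. On simulated counts for *upf-1* loss without H2O2 (7777 genes), 50 of 50 genes raised by a log2 of 2 and 45 of 49 lowered by 2 were called. So were 13 of 50 raised by 1, 17 of 49 lowered by 1 and 4 of 7579 unchanged genes. Total counts were 5891672 to 7703271 per library, so that members with few reads have wide errors, and intervals cover the spread between pools only. DESeq2 1.42.0 was an alternative.

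The rule named the 10 members with most exons, tested members with a symbol, and for each comparison the 3 largest increases and decreases on average 100 or more normalized counts and, between 2 groups, no overlap. Naming of any other gene followed a look at its values. The members, lists and tests were chosen with earlier results of these data known. The replicate numbers did not pair the libraries (correlations of deviations from -0.264 to 0.245 in 18 pairs), and the methods name 2 instruments without assigning them to samples. Matching used Length ratios of 1.1, or 1.25 with a level within 0.5 log2 CPM.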

Additional observations from a re-analysis of the deposited data

Results flagged for a closer look

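Members whose H2O2 effect differed between the strains by the interaction test of edgeR numbered 3 with a more positive effect in upf-1KO and 4 with a more negative one, where 3.86% and 2.86% of all tested genes were called. NCU05289 (8 exons) had a difference of 1.32 (SE 0.34, adjusted p = 0.0396 from edgeR), with 717, 733.5 and 757 normalized counts in untreated WT, 336, 589.5 and 545 in WT with H2O2, 508, 404 and 428 in untreated upf-1KO and 615, 988 and 613 in upf-1KO with H2O2. NCU08956 (7 exons) had a difference of 1.23 (SE 0.31, adjusted p = 0.0377 from edgeR). NCU08880 (8 exons) had one of 1.06 (SE 0.22, adjusted p = 0.0166 from edgeR), with 554, 498 and 551 normalized counts in upf-1KO with H2O2 against 157 to 227 in the 9 other libraries. These 3 differences lost their call without 11, 10 and 9 of the 12 libraries, in that order.

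NCU02343 had a difference of -1.63 (SE 0.37, adjusted p = 0.0244 from edgeR), since H2O2 lowered it in upf-1KO by 1.70 and left it at -0.07 in WT. NCU02404 had -1.40 (SE 0.23, adjusted p = 0.00644 from edgeR). NCU07069 (7 exons) had -1.06 (SE 0.25, adjusted p = 0.0276 from edgeR), with an increase of 0.69 in WT and a value of -0.37 in upf-1KO. NCU08820, at -0.93 (SE 0.22, adjusted p = 0.0279 from edgeR), was named after its value was seen. The differences of NCU02343 and NCU07069 each lost their call without 6 of the 12 libraries.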

How the results depend on the processing

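Of 1723 values for 91 named calls under the alternatives, 1452 kept direction and side of the threshold, 254 kept direction only and 17 reversed. Where a value changed, the cause was not tested unless fewer libraries or genes entered. The shares over all genes moved under the alternatives too, so the counts below do not by themselves set the members apart. For *upf-1* loss without H2O2, 65 members rose and 45 fell when only the groups compared were fitted. The number that fell was 16 with DESeq2, 3 with library totals alone, 4 with the length trend removed, 4 without members whose exons overlap another gene, and 1 where calls needed a change of 1 or more on the log2 scale with an unadjusted p under 0.05 (the size rule). For H2O2 in WT, 8 rose and 114 fell with library totals, 71 and 14 with the length trend removed and 25 and 25 by the size rule. For H2O2 in upf-1KO, 9 rose and 88 fell with totals, 19 and 22 by the size rule, 20 rose with only the groups compared and 18 fell with the length trend removed. For *upf-1* loss with H2O2, 85 rose and 3 fell with totals, 7 and 1 with only the groups compared, and 8 fell by the size rule. For the interaction, 22 rose and 2 fell with totals, 10 and 9 by the size rule, 14 fell with DESeq2, and 1 rose with DESeq2's size factors in edgeR, without the low-count filter and with the length trend removed.

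With the replicate number as a block, 4 members fell upon *upf-1* loss without H2O2, and for the interaction 1 rose and 2 fell. The other counts stayed within 1.5 times under the block, and the numbers share no known source. Members minus partners was 0.123 for *upf-1* loss without H2O2 without overlapping members and 0.0128 against all single-exon genes in the range of Length, and 0.368 (matched on level) and 0.395 (all in range) for H2O2 in WT.

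Without 1 library, 12 to 43 members rose and 2 to 34 fell upon *upf-1* loss without H2O2, 33 to 57 and 30 to 50 with H2O2 in WT, 21 to 49 and 30 to 57 with H2O2 in upf-1KO, 15 to 34 and 16 to 36 upon *upf-1* loss with H2O2, and 0 to 14 and 1 to 15 in the interaction. The shares over all genes moved as well, from 6.918% to 16.72% that rose upon *upf-1* loss without H2O2. Members minus partners was 0.0651 to 0.117, 0.797 to 0.965, 0.355 to 0.853 and -0.513 to 0.0324 in the 4 comparisons of 2 groups. Beside the calls whose losses are given with them, calls were lost in 4 of these 12 refits for *gh13-2* upon *upf-1* loss with H2O2, in 3 for *rib-3* with H2O2 in WT and for NCU02404 and *pks-1* in upf-1KO, in 2 for *arp-3*, *suc*, *pph-1*, *gh35-1* and *nuo40* with H2O2 in upf-1KO and for *nuo40* upon *upf-1* loss with H2O2, and in 1 for *cbs-1* and *fba* upon *upf-1* loss with H2O2, *rcm-1* with H2O2 in upf-1KO and *gh35-1* upon *upf-1* loss without H2O2.

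With library totals alone the H2O2 values in WT reversed for *suc* (-0.259), *rib-3* (-0.51), *gln-2* (-0.601), *arg-1* (-0.38), *arp-3* (-0.173), NCU02404 (-0.328) and NCU07069 (-0.56), those in upf-1KO for *rib-3* (-0.005), *atp-2* (-0.007), *pph-1* (-0.049) and *Bml* (-0.16), and those of *upf-1* loss with H2O2 for NCU05502 (0.031), *os-2* (0.202) and *vma-1* (0.083). With the length trend removed *cdc15* (0.281 in WT), *pks-1* (0.516 in upf-1KO) and *rcm-1* (0.282 in upf-1KO) reversed. Depth limits the 37 members not tested, with at most 19 reads in any library.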
